A study of Mus musculus with 2 samples.

Results

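The IGF axis was followed through 9 genes, chosen by symbol from the 31053 annotated genes of both matrices: the ligand Igf1, the receptors Igf1r and Igf2r, and the binding proteins Igfbp2, Igfbp3, Igfbp4, Igfbp5, Igfbp6 and Igfbp7. All 9 were present in both matrices. Igf1 is a secreted growth factor that signals through the tyrosine kinase receptor Igf1r. Igf2r is the cation-independent mannose 6-phosphate receptor, which clears the related ligand Igf2 and carries lysosomal enzymes. The binding proteins are secreted and hold IGF ligands outside cells, releasing them when proteases such as Pappa cut them. Igfbp7 is a relative of this family with weak affinity for IGF. In the lung, fibroblasts and macrophages are known sources of Igf1, and Igfbp2 is known as a gene of mature alveolar type 1 (AT1) cells, the thin cells of gas exchange, which arise from surfactant-making alveolar type 2 (AT2) cells.

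The series holds 2 single-cell RNA-seq libraries, 1 from Pclaf WT and 1 from Pclaf KO mice of 8 to 10 weeks, both taken 1 week after bleomycin (1.35 U/kg by the design text), a drug that injures the alveolar epithelium. Pclaf is a PCNA-associated factor of dividing cells, and the KO mice came from a line established earlier, whose allele is not described further in the sources used here. Both libraries were recorded as lung cells sorted as negative for Cd31 and Cd45 and positive for Epcam. How many mice each library pooled was not given in the sources used here. With 1 library per genotype there was no test between genotypes. Levels are given as CPM, the UMIs (counted RNA molecules) of a gene summed over the cells of a class and scaled to a common total, with exact Poisson 95% intervals, and differences as log2 KO over WT with exact conditional 95% intervals. These intervals cover counting error only. Counts were of 3′ ends, so levels were not compared between genes.

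The WT library held 30669 barcodes and the KO library 17172, against 16000 cells loaded per group, and 163 barcode sequences occurred in both. After filtering, 30187 WT cells (median 2127 UMIs) and 15637 KO cells (median 5957 UMIs) remained. Pclaf itself stood at 39.3 CPM over all kept WT cells against 5.19 CPM over all kept KO cells. The libraries differed in make-up, so genotype and make-up cannot be told apart in these pooled values. The label "Epithelial cell" held for most of the KO library, where epithelial classes made up 77.3% of classed cells and mesenchymal classes 16.2%. Immune and endothelial classes made up 3.08% and 2.37% there. The label went against the WT library, where epithelial classes made up 8.87%, immune classes 48.5% and endothelial classes 30.8%. The recorded sort went against the WT library too. Over its kept cells Pecam1 (Cd31) stood at 433 CPM, Ptprc (Cd45) at 505 CPM and Epcam at 37.0 CPM. Cells were therefore placed in 28 marker-gated classes, none of them defined by an IGF axis gene, and levels were compared class by class. A class is a range of a marker score and not a sorted type: 23.8% of AT1-like cells in each library, 19.4% of WT and 14.1% of KO alveolar fibroblast-like cells, and 22.8% of WT C1q and 39.9% of WT Spp1 macrophage-like cells led the next class by a score gap of only 0.1 to 0.2. For 13 classes both libraries held at least 50 cells. In droplet data, free RNA gives UMIs in cells that do not express a gene. B cell-like cells served as a reference class: there Igf1 was at 17.5 CPM in the WT library and 6.40 in the KO library, Igfbp4 at 47.3 and 6.40, Igfbp7 at 70.5 and 19.2, and Igfbp2 at 9.08 and 6.40 (1 UMI for each KO value but that of Igfbp7, which had 3, in 59 cells).

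Igfbp2 and Igfbp5 lie tail to tail on chromosome 1, at chr1:72824480-72852474 and chr1:72858065-72874865 of GRCm38.p6, with 5590 bases between them, yet they were high in different classes. Igfbp4, at chr11:99040005-99052655, was high in adventitial fibroblast-like and arterial-like cells. The 100 bases before an annotated start of each of these 3 genes are shown (RefSeq, GRCm38.p6, each on the strand of its gene). They were chosen because Igfbp2 and Igfbp5 are neighbours with different profiles, and Igfbp4 is the binding protein that differed most often between the libraries. The start used for Igfbp4 lies inside the span of the gene given above, and not at its first base. Capitals mark GGGCGG, the letters of a GC box, and TATAAA, the letters of a TATA box, searched on both strands with no overlap between them in these windows.
Igfbp2, chr1:72824380-72824479, plus strand: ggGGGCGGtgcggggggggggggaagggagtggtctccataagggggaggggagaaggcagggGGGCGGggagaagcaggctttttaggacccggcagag
Igfbp5, chr1:72874866-72874965, minus strand: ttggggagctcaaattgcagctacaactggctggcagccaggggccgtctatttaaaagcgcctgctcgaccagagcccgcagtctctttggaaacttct
Igfbp4, chr11:99041144-99041243, plus strand: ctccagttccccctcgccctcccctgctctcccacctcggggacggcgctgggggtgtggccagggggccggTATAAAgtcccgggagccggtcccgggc
The Igfbp2 window was 71% G and C and the Igfbp5 window 55%. GGGCGG stood in the windows of Igfbp2, Igf1r, Igf2r and Igfbp7, and in 25.2% of 27025 promoter windows of the same length. TATAAA stood in that of Igfbp4 alone among the members, and in 5.95% of all windows. A second annotated start of Igfbp2, at chr1:72825287-72825386, held neither.

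**Figure D1:**
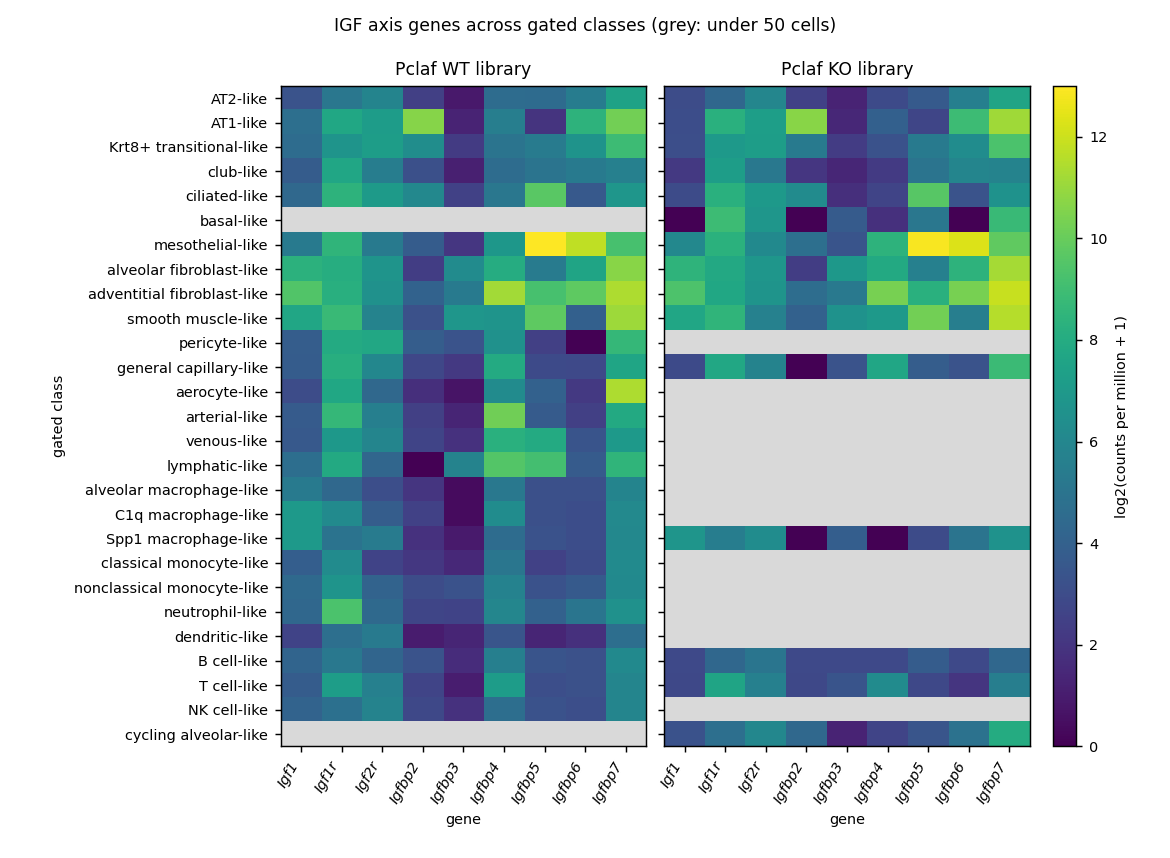
Level of the 9 IGF axis genes (columns) in each gated class (rows) of the Pclaf WT library (left) and the Pclaf KO library (right), as log2 of CPM plus 1; grey marks classes under 50 cells. Igfbp2 is bright in the AT1-like row, Igfbp5 and Igfbp6 in the mesothelial-like row, and Igf1 in the fibroblast-like rows of both libraries.

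Igfbp2 marked AT1-like cells in both libraries. It stood at 1591 CPM (1499 to 1687; 1113 UMIs in 345 cells) in WT and 1665 CPM (1612 to 1718; 3827 UMIs in 491 cells) in KO AT1-like cells. In AT2-like cells it stood at 4.56 CPM (21 UMIs) and 4.62 CPM (244 UMIs), which is at or under the level in B cell-like cells. AT1-like over AT2-like cells gave a log2 ratio of 8.45 (7.83 to 9.14) in the WT library and 8.49 (8.30 to 8.68) in the KO library. The AT1-like class, 1.14% of kept WT cells and 3.14% of kept KO cells, carried 56.9% of all Igfbp2 UMIs of the WT library and 73.6% of those of the KO library. Below AT1-like cells in the order came Krt8+ transitional-like cells, an intermediate between AT2 and AT1, at 82.0 and 40.5 CPM, and ciliated-like cells at 67.0 and 76.5 CPM. In the WT library these 2 classes did not differ beyond counting error (log2 ratio 0.29, -0.15 to 0.74), whereas in the KO library ciliated-like cells were higher (0.92, 0.70 to 1.14).

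With every cell thinned to 1000 UMIs, an Igfbp2 UMI was found in 46.9% (38.7 to 55.3) of 147 WT and 44.1% (39.2 to 49.1) of 404 KO AT1-like cells, leaving out 198 and 87 shallower cells. The unthinned shares were 46.1% and 53.6%, at median depths of 847 and 4184 UMIs. In B cell-like cells, which should lack the gene, the unthinned shares were 1.88% and 1.69% at median depths of 1876.5 and 2285 UMIs.

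Between the libraries, Igfbp2 in AT1-like cells differed by 0.07 (-0.03 to 0.16) on the log2 scale. Over the whole class no difference was thus detected beyond counting error. Under 1000 UMIs it was 1324 CPM (1137 to 1532; 198 cells) in WT and 2014 CPM (1671 to 2406; 87 cells) in KO cells. These intervals did not overlap. At middle depth it was 1387 and 1324 CPM, and in the deepest cells 1784 and 1719 CPM, with overlapping intervals. The part of depth in the class ratio was not tested. The libraries also differed in the clusters of cells that made up the class. Cluster 27 of an unsupervised clustering that left out the 9 genes (leading genes Rtkn2, Igfbp2 and Scel) held 19.4% of WT and 44.2% of KO AT1-like cells, at 2628 and 2535 CPM of Igfbp2 (log2 -0.05, -0.16 to 0.06). Cluster 29 (Akap5, Igfbp2 and Spock2) held 188 WT and 118 KO cells, at 1403 and 1004 CPM (log2 -0.48, -0.78 to -0.18). Cluster 7, led by the transitional genes Sprr1a and Cldn4, held 6.09% and 19.1% of the class. Its levels were 40.3 CPM (3 UMIs) and 334 CPM (140 UMIs; log2 3.05, 1.48 to 5.35). The split into clusters was added after the data were seen. Among these clusters, Igfbp2 was thus highest in the AT1-like cells of cluster 27 and lowest in those of cluster 7, in both libraries. In the AT1-like cells of cluster 7 it was higher in the KO than in the WT library, from 3 WT UMIs. The Krt8+ transitional-like cells of the same cluster, given below, went the other way.

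**Figure D2:**
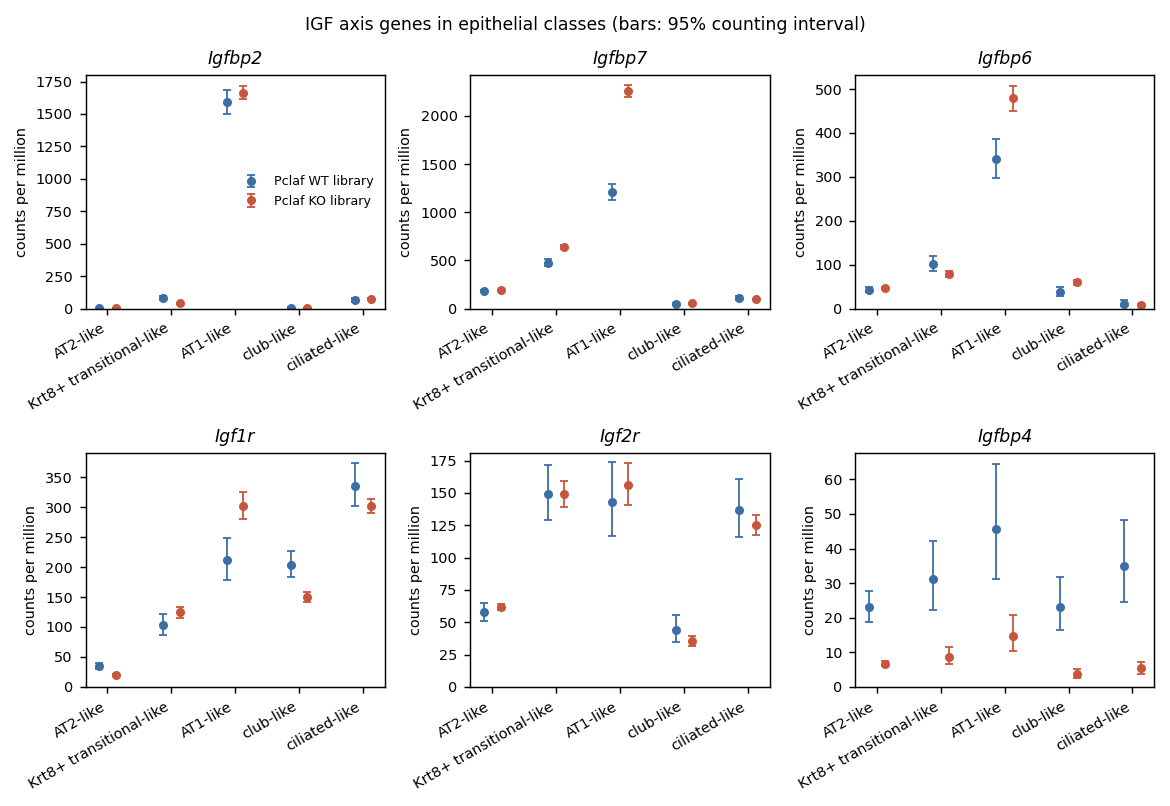
CPM of 6 IGF axis genes in 5 epithelial classes of the WT (blue) and KO (red) libraries, with 95% counting intervals; each panel starts at 0. Igfbp2 stands at 1591 and 1665 in AT1-like cells and under 100 in the other classes, and Igfbp4 is at most 45.7 in any class.

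Along the difference between the AT1 and the AT2 marker score, over cells whose highest 2 scores were both alveolar, Igfbp2 was low over most of the range and high at its end. Up to a score difference of 0.2, no WT bin was above 18.6 CPM and no KO bin above 32.2 CPM. Between 0.2 and 0.4 the WT level was 184 CPM and the KO level 122 CPM. Above 0.4 it reached 1900 CPM (163 cells) and 1575 CPM (424 cells). Igf1r and Igfbp7 were higher in steps across most bins instead. Igf1r went from 6.80 CPM in the lowest WT bin (1 UMI) to 245 CPM in the highest, and from 12.1 to 317 CPM in the KO library. Igfbp7 went from 109 to 1405 CPM and from 109 to 2177 CPM. The scores of the AT1-like and AT2-like classes rest on other genes, so these profiles are a description of cells ordered by those markers.

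**Figure D3:**
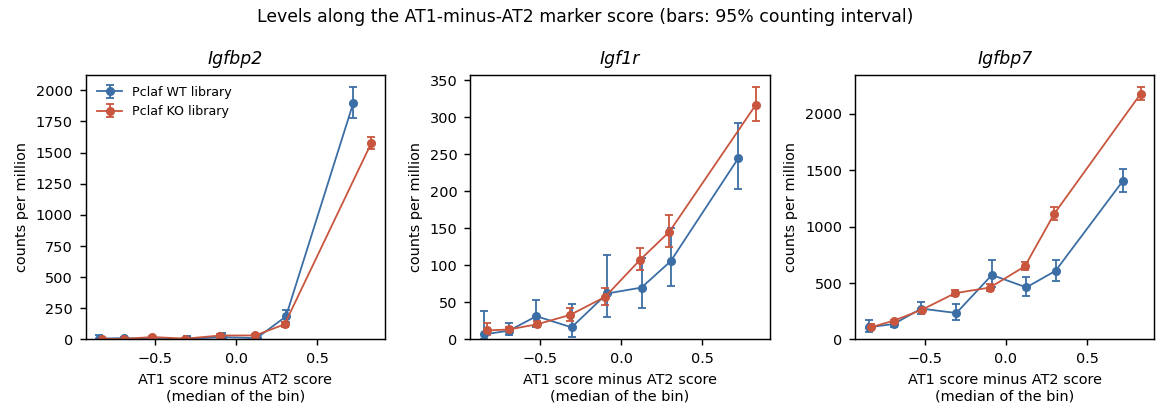
CPM of Igfbp2, Igf1r and Igfbp7 (y axes, from 0) in bins of the AT1 score minus the AT2 score (x axis, median of the bin) for WT (blue) and KO (red) cells, with 95% counting intervals. Igfbp2 is near 0 until the last 2 bins, where it reaches 1900 and 1575, while Igf1r and Igfbp7 increase over most bins.

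In Krt8+ transitional-like cells Igfbp2 was 82.0 CPM (108 UMIs in 257 cells) in the WT and 40.5 CPM (237 UMIs in 947 cells) in the KO library, a log2 ratio of -1.02 (-1.35 to -0.67). Within cluster 7, which contained 80.5% of the WT and 86.1% of the KO cells of this class, the levels were 81.8 and 41.0 CPM. The difference depended on which cells were kept: with the limits on detected genes read as limits on UMIs the ratio was -0.017. With cells thinned to 1000 UMIs the share of transitional-like cells with an Igfbp2 UMI was 3.18% (1.29 to 6.45) and 2.92% (1.92 to 4.26), intervals that overlap.

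Igf1, the ligand, was highest in adventitial fibroblast-like cells, at 712 CPM (651 to 778; 497 UMIs in 168 cells) in the WT and 660 CPM (610 to 712; 651 UMIs in 173 cells) in the KO library. Alveolar fibroblast-like cells followed at 329 CPM (314 to 344) and 344 CPM (332 to 356), and smooth muscle-like cells at 205 and 208 CPM. Each of these steps was larger than counting error in both libraries. Activated fibroblast-like cells, of which there were 48 in the WT and 9 in the KO library, stood at 461 and 529 CPM. In the KO library 51.0% of all Igf1 UMIs lay in alveolar fibroblast-like cells, in the WT library 23.9%, with another 32.8% of the WT and 24.6% of the KO UMIs in cells that no class took.

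Among macrophage-like classes, Igf1 was 126 CPM (117 to 135; 803 UMIs in 1414 cells) in WT C1q macrophage-like cells and 126 CPM (117 to 136; 687 UMIs in 843 cells) in WT Spp1 macrophage-like cells, which did not differ beyond counting error (log2 ratio 0.01, -0.14 to 0.16). Alveolar macrophage-like cells were lower, at 39.3 CPM in the WT and 37.4 CPM in the KO library (11 UMIs). Classical monocyte-like cells were at 13.9 CPM in the WT library, under the 17.5 CPM of B cell-like cells. Igf1 was thus above the B cell-like level in the 3 macrophage-like classes and not in classical monocyte-like cells. With cells thinned to 1000 UMIs, 11.3% (9.53 to 13.2) of WT C1q macrophage-like cells had an Igf1 UMI (24.1% unthinned, at a median of 4219.5 UMIs), against 1.66% of WT B cell-like cells.

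Between the libraries, Igf1 differed by 0.06 (-0.02 to 0.15) in alveolar fibroblast-like cells, by -0.11 (-0.28 to 0.06) in adventitial fibroblast-like cells and by 0.02 (-0.27 to 0.30) in smooth muscle-like cells on the log2 scale. None of these passed counting error. In C1q macrophage-like cells the KO level was 182 CPM (122 to 262), from 29 UMIs in 48 cells, a log2 ratio of 0.54 (-0.05 to 1.07), and in Spp1 macrophage-like cells 107 CPM from 31 UMIs in 51 cells (-0.23, -0.80 to 0.29). The KO macrophage-like cells were shallow, with median depths of 1668.5 UMIs (C1q) and 1262 UMIs (Spp1) against 4219.5 and 6367 UMIs in the WT library. The C1q ratio was -0.32 when the limits on detected genes were read as limits on UMIs, and -0.072 with classes from clusters, so its sign depended on the gate. The share of alveolar fibroblast-like cells with an Igf1 UMI at 1000 UMIs was 22.4% (20.1 to 24.8) in WT and 23.8% (21.8 to 25.9) in KO, and 37.0% and 55.1% unthinned, at median depths of 2547 and 4650.5 UMIs.

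Alveolar fibroblast-like cells held 3 clusters in different proportion. Cluster 16 (leading genes Mmp3, Brinp1 and Sfrp1) held 31.8% of the WT and 56.0% of the KO cells, with Igf1 at 462 and 420 CPM (log2 -0.14, -0.23 to -0.04). Cluster 14 (Gpx3, Dpt and Inmt) held 40.7% and 12.6%, at 222 and 138 CPM (-0.69, -1.26 to -0.15). Cluster 15 (Slc7a10 and Colq among its leading genes) held 21.3% and 30.0%, at 134 and 157 CPM (0.22, -0.03 to 0.49). Igf1 was therefore lower in KO cells of clusters 16 and 14 and not detectably different in cluster 15. The class total did not differ beyond counting error (0.06, -0.02 to 0.15). Cluster 16, with the highest level, made up a larger share of the KO cells. KO cells were also deeper (median 4650.5 against 2547 UMIs). Under 1000 UMIs Igf1 was 189 CPM (WT) and 116 CPM (KO). At middle depth it was 217 and 186 CPM, and in the deepest cells 396 and 382 CPM. The WT and KO intervals overlapped in each depth range. The parts of cluster mix and depth in the class ratio were not tested. When classes were taken from named clusters, cluster 16 was not named, since 1 of its 10 leading genes was a marker of another class and none was of its own, and the log2 ratio of the class became -0.61 (-0.75 to -0.47).

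**Figure D4:**
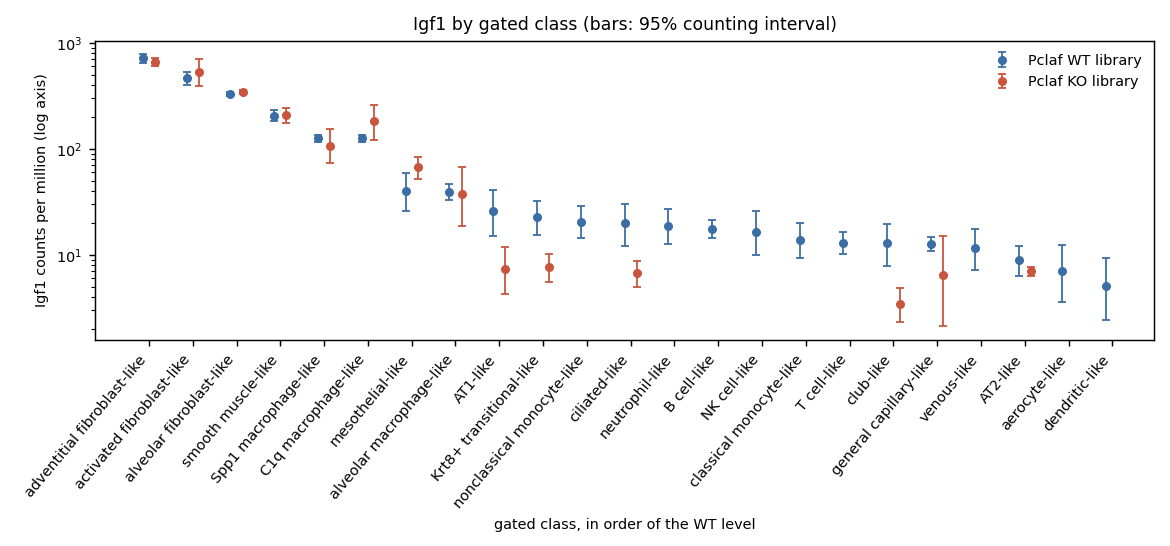
Igf1 CPM (log axis) in gated classes in the order of their WT level, for WT (blue) and KO (red) libraries, with 95% counting intervals; points under 3 UMIs are left out. Fibroblast-like, smooth muscle-like, C1q and Spp1 macrophage-like classes stand above 100, and most other classes lie between 3 and 30.

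The receptor Igf1r was detected in every class compared. Among WT classes it was highest in neutrophil-like cells, at 639 CPM (601 to 680), and 321 CPM (193 to 501) in the 34 neutrophil-like KO cells. Smooth muscle-like cells followed at 448 and 359 CPM. In the WT order from there through arterial-like (401 CPM), mesothelial-like (357 CPM) and ciliated-like cells (336 CPM), no class differed from the next beyond counting error. In the KO library basal-like cells were highest, at 485 CPM (59 cells). In the alveolar epithelium Igf1r was 34.3 CPM in WT and 19.5 CPM in KO AT2-like cells, 103 and 125 CPM in Krt8+ transitional-like cells, and 212 and 303 CPM in AT1-like cells. AT1-like over AT2-like cells was thus 6.16-fold in the WT and 15.5-fold in the KO library. The AT2-like levels were close to those of B cell-like cells, at 36.3 CPM in the WT and 19.2 CPM (3 UMIs) in the KO library. The part of free RNA in the AT2-like values, and so in these folds, was not tested. Igf1r was lower in the KO library in AT2-like cells (log2 -0.82, -1.06 to -0.57) and higher in AT1-like cells (0.52, 0.26 to 0.78). Within cluster 27 of AT1-like cells the ratio was 0.36 (0.07 to 0.67). AT1-like cells under 1000 UMIs had 125 CPM (WT) and 150 CPM (KO). Cells of middle depth had 164 and 202 CPM, and the deepest cells 265 and 327 CPM. The WT and KO intervals overlapped in each depth range. Median depth was 847 UMIs in WT and 4184 UMIs in KO AT1-like cells. The part of depth in the class ratio was not tested. The AT2-like ratio was -0.054 with classes from clusters, so the difference in AT2-like cells, and with it the larger AT1 over AT2 fold of the KO library, depended on the gate. Over the 13 compared classes the interval of the ratio lay above 0 in 2 and below 0 in 6, and no ratio reached 2-fold. Of these 8, the sign turned in Krt8+ transitional-like cells with classes from clusters (-0.14), in club-like cells with TMM scaling (0.016) and in alveolar fibroblast-like cells with the mean log-normalized value (0.11).

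Igf2r was lower in AT2-like than in the other alveolar classes, in both libraries. It was 149 CPM in both WT and KO transitional-like cells, 143 and 156 CPM in AT1-like cells, 137 and 125 CPM in ciliated-like cells, and 57.6 and 61.8 CPM in AT2-like cells. AT1-like over AT2-like cells gave log2 1.31 (0.97 to 1.65) in the WT and 1.34 (1.18 to 1.5) in the KO library, while AT1-like and transitional-like cells did not differ beyond counting error. Pericyte-like cells of the WT library were highest, at 220 CPM (163 to 291; 109 cells). In 11 of the 13 classes the interval of KO over WT held 0, and in mesothelial-like (0.81, 0.14 to 1.53) and Spp1 macrophage-like cells (0.95, 0.26 to 1.57) it lay above 0, and with the limits read as UMIs these were 0.21 and -0.029. The antisense gene Airn, which overlaps Igf2r, had the profile most like it, and whether counting used the strand was not given in the sources used here, so that reads of the 2 may not be fully separated.

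Of the other binding proteins, Igfbp5 and Igfbp6 were highest in mesothelial-like cells. Mesothelial-like cells, the lining of the pleura, held Igfbp5 at 7913 CPM (7695 to 8135; 102 cells) in the WT and 7548 CPM (7384 to 7715; 150 cells) in the KO library, and Igfbp6 at 3446 CPM (3303 to 3594) and 5084 CPM (4949 to 5222). Igfbp5 differed by -0.07 (-0.12 to -0.02), which became 0.035 with TMM scaling, and Igfbp6 by 0.56 (0.49 to 0.63) on the log2 scale. After mesothelial-like cells, Igfbp5 was highest in smooth muscle-like (875 and 1193 CPM) and ciliated-like cells (803 and 774 CPM), with 50.6% of WT and 48.1% of KO ciliated-like cells holding a UMI at 1000 UMIs. AT1-like cells, where its neighbour Igfbp2 was highest, held Igfbp5 at 2.86 CPM (2 UMIs) and 5.65 CPM (13 UMIs).

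In smooth muscle-like cells 2 clusters differed in Igfbp5 and Igfbp3. Cluster 0 (leading genes Kctd16, Aspn and Hhip), 26.3% of the WT and 48.6% of the KO cells, held Igfbp5 at 2375 and 2335 CPM (log2 -0.02, -0.17 to 0.12) and Igfbp3 at 446 and 242 CPM. Cluster 36, led by the contractile genes Actc1 and Myh11, held Igfbp5 at 397 and 454 CPM (0.19, -0.05 to 0.44) and Igfbp3 at 7.98 and 4.22 CPM. Over the whole class Igfbp5 was higher in the KO library (0.45, 0.32 to 0.57), while within neither cluster did the interval leave 0. The class ratio of Igfbp3 was -0.23 (-0.64 to 0.18). The part of cluster mix in these class ratios was not tested.

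Igfbp6 was also carried by adventitial fibroblast-like cells, at 867 and 1298 CPM, AT1-like cells, at 340 and 479 CPM, and alveolar fibroblast-like cells, at 189 and 341 CPM. In these classes it was higher in the KO library, by 0.58 (0.44 to 0.72), 0.49 (0.29 to 0.70) and 0.85 (0.75 to 0.95). The 3 alveolar fibroblast clusters gave 1.45, 1.20 and 0.56 for clusters 14, 15 and 16. In smooth muscle-like cells it was low in both libraries, at 15.1 CPM (20 UMIs) and 46.2 CPM (36 UMIs).

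Igfbp4 was highest in adventitial fibroblast-like cells, at 2371 CPM (2258 to 2488) in the WT and 1281 CPM (1211 to 1353) in the KO library (log2 -0.89, -0.99 to -0.78), and 72.9% and 59.5% of these cells had a UMI at 1000 UMIs. Within cluster 26 (Pi16, Scara5 and Apod), which held 58.3% and 59.5% of the class, the ratio was -0.92 (-1.04 to -0.80). Igfbp5 was also lower in KO cells of this class, at 585 and 305 CPM (-0.94, -1.16 to -0.72; -2.87 with the limits read as UMIs). In the WT endothelium Igfbp4 graded from arterial-like (1143 CPM) through lymphatic-like (736 CPM) and venous-like (309 CPM) to general capillary-like cells (247 CPM), and aerocyte-like cells were lower still (log2 -1.72, -1.98 to -1.46, against general capillary-like cells). Mesothelial-like cells differed in the other direction, with 116 CPM (73 UMIs) in the WT and 339 CPM (360 UMIs) in the KO library (1.55, 1.18 to 1.93).

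In epithelial classes Igfbp4 was low. It was between 23.0 and 45.7 CPM in AT2-like, AT1-like, transitional-like, club-like and ciliated-like WT cells and between 3.67 and 14.8 CPM in the KO cells. B cell-like cells stood at 47.3 CPM in the WT and 6.40 CPM in the KO library, so that the epithelial levels lay at or under the B cell-like level in the WT library. The other WT immune classes ranged from 9.58 CPM (dendritic-like) to 142 CPM (T cell-like), so this placing depended on the reference class. Igf1 was 8.90 to 25.7 CPM in the 5 epithelial WT classes, against 17.5 CPM in B cell-like cells. AT2-like and club-like cells were below that level, and AT1-like (18 UMIs), transitional-like (30 UMIs) and ciliated-like cells (21 UMIs) above it. These counts were small, and whether the classes differed from B cell-like cells in Igf1 beyond counting error was not tested. Beside these values, immune and endothelial classes were far larger shares of the WT than of the KO library, as given above. Mesenchymal classes, among them those highest in Igf1, went the other way, at 11.4% of classed WT and 16.2% of classed KO cells. The part of free RNA in these epithelial differences was not tested.

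In mesenchymal, mesothelial, Krt8+ transitional-like and AT1-like cells Igfbp7 was higher in the KO library. It stood at 2686 and 3809 CPM in adventitial fibroblast-like cells (log2 0.50, 0.42 to 0.58), 2178 and 3028 CPM in smooth muscle-like cells (0.48, 0.40 to 0.55), 1665 and 2442 CPM in alveolar fibroblast-like cells (0.55, 0.52 to 0.59) and 1209 and 2253 CPM in AT1-like cells (0.90, 0.79 to 1.00). Within clusters the ratios were 0.64, 0.41 and 0.41 for clusters 14, 15 and 16 of alveolar fibroblast-like cells, and 0.89 and 0.50 for clusters 27 and 29 of AT1-like cells, each with an interval above 0. The shallowest AT1-like cells, under 1000 UMIs, had 890 and 1914 CPM and the deepest 1298 and 2249 CPM. The AT1-like classes also differed in their markers, with a median AT1 marker level of 12809 CPM in WT and 23030 CPM in KO cells. The parts of depth, cluster mix and marker level in the class ratio were not tested. In mesothelial-like cells Igfbp7 was 589 and 905 CPM (0.62, 0.45 to 0.80), and in Krt8+ transitional-like cells 478 and 641 CPM (0.42, 0.30 to 0.55). In AT2-like cells it was 179 and 190 CPM (0.09, -0.01 to 0.19). Aerocyte-like cells, the capillary cells that face AT1 cells, held 2664 CPM in the WT library and 4680 CPM in 42 KO cells. General capillary-like cells held 197 and 466 CPM (log2 KO over WT 1.24, 1.08 to 1.40).

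Igfbp3 was highest in mesenchymal classes. It was 114 and 97.5 CPM in smooth muscle-like cells, 75.2 and 119 CPM in alveolar fibroblast-like cells (0.67, 0.50 to 0.83) and 40.1 and 37.5 CPM in adventitial fibroblast-like cells, while no epithelial class of at least 50 cells in both libraries was above 4.72 CPM. In alveolar fibroblast-like cells it was highest in cluster 15, at 146 and 262 CPM (0.84, 0.61 to 1.08).

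**Figure D5:**
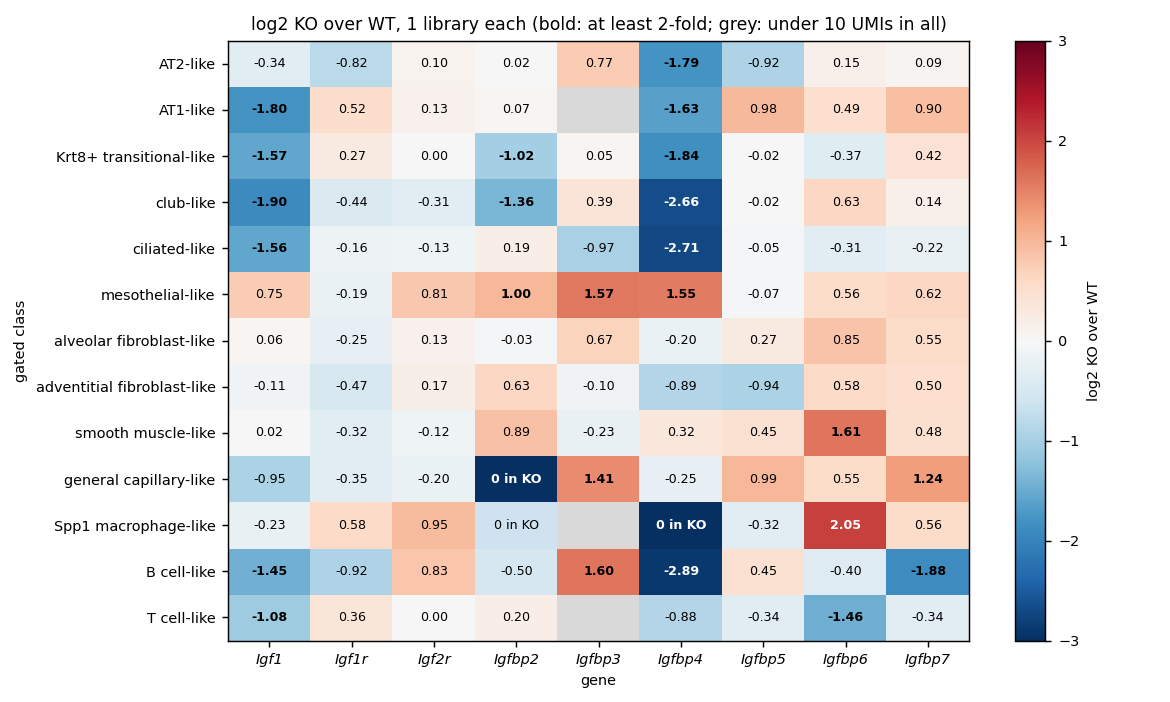
Log2 KO over WT of each IGF axis gene (columns) in the 13 classes compared (rows), 1 library per genotype; bold marks at least 2-fold, grey under 10 UMIs in all, and "0 in KO" a gene with no UMI in the KO cells. Igfbp4 is lower in KO cells in all rows but mesothelial-like (1.55) and smooth muscle-like cells (0.32). Its alveolar fibroblast-like row turns under the mean log-normalized value (0.079). In the AT2-like, AT1-like, Krt8+ transitional-like, club-like and ciliated-like rows its WT level lies at or under that of B cell-like cells. Other WT immune classes range from 9.58 CPM (dendritic-like) to 142 CPM (T cell-like). Igfbp6 and Igfbp7 are higher in both fibroblast-like rows and in smooth muscle-like cells.

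Counted over the 13 classes, 26 of 114 ratios with at least 10 UMIs were at least 2-fold apart, 8 higher and 18 lower in the KO library, and for 20 of them the interval lay past 0. By gene these were 8 of Igfbp4, 6 of Igf1, 4 of Igfbp2, 3 each of Igfbp3 and Igfbp6, and 2 of Igfbp7, with no such ratio for Igf1r, Igf2r or Igfbp5. Where 1 library had no UMI, 0.5 was added to both sums for this count. The shares below set each class beside all genes of that class with at least 10 UMIs.

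In AT2-like cells 1 of 9 members was 2-fold apart (19.5% of all genes), in AT1-like cells 2 of 8 (17.8%), in Krt8+ transitional-like cells 3 of 9 (17.2%), in club-like cells 3 of 9 (22%) and in ciliated-like cells 2 of 9 (15.1%). All of these were lower in the KO library, and all were Igf1, Igfbp4 or Igfbp2. In mesothelial-like cells 3 of 9 were higher (14.9% of all genes either way), Igfbp4, Igfbp2 (8 and 27 UMIs) and Igfbp3 (2 and 10 UMIs), of which Igfbp4 alone had an interval above 0. In alveolar fibroblast-like cells none of 9 was 2-fold apart (12.7%) and in adventitial fibroblast-like cells none of 9 (11.7%), while intervals lay past 0 for several, as above. In smooth muscle-like cells 1 of 9 was (14.4%), Igfbp6, and in general capillary-like cells 3 of 9 (18.8%), with Igfbp7 and Igfbp3 (48 and 7 UMIs) higher, of which Igfbp3 turned to -2.48 with classes from clusters. Igfbp2 had 82 UMIs in WT and 0 in KO general capillary-like cells, which against a limit of 3 counts is at least 1.5-fold lower, so that it counts as 2-fold only under the addition of 0.5.

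In Spp1 macrophage-like cells 2 of 8 members were 2-fold apart (21.5%): Igfbp6 was higher, at 41 and 9 UMIs, though its ratio was 0.057 with at least 4 markers required, and Igfbp4 had 126 UMIs in the WT and 0 in the KO library, at least 2.23-fold lower. In B cell-like cells 4 of 9 (29.5%) and in T cell-like cells 2 of 8 (26.6%) were, from at most 3 KO UMIs each. Set against all genes, the members' share was lower in AT2-like, alveolar fibroblast-like, adventitial fibroblast-like, smooth muscle-like and T cell-like cells. It was higher in the other classes, from 2 to 4 genes each, and this was not tested. The median log2 ratio of the members was 0.02 in AT2-like, 0.31 in AT1-like, 0.75 in mesothelial-like and 0.13 in alveolar fibroblast-like cells, beside -0.17, 0.00, -0.07 and -0.08 over all genes of these classes. In other classes it lay below that of all genes. These were ciliated-like (-0.22 beside -0.07), adventitial fibroblast-like (-0.10 beside -0.06), general capillary-like (-0.20 beside -0.11), B cell-like (-0.50 beside -0.20) and T cell-like cells (-0.34 beside -0.31).

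The IGF pathway list held 25 further genes of ligands, receptors, binding proteins, their proteases, receptor substrates and the growth hormone axis. Igf2, the other ligand, had 2 UMIs in the WT and 12 in the KO library over all kept cells, and Igfbp1 had 0 and 1. Between 11 and 18 of the 25 reached 10 UMIs in a compared class, and between 1 and 5 of them were at least 2-fold apart. Over all genes this share ran from 11.7% in adventitial fibroblast-like to 29.5% in B cell-like cells. In alveolar fibroblast-like cells 1 of 17 pathway genes was 2-fold apart (12.7% of all genes), in AT2-like cells 2 of 16 (19.5%) and in B cell-like cells 5 of 11 (29.5%). Whether the pathway genes differed from all genes was not tested. In club-like cells the growth hormone signalling factor Stat5b was 44.6 and 12.0 CPM (log2 -1.89, -2.34 to -1.44) and Stat5a 7.95 and 2.52 CPM, both lower in the KO library. Over all kept cells Stat5b was 101 CPM in the WT and 38.1 CPM in the KO library. T cell-like cells were highest in it, at 341 and 231 CPM. The part of free RNA in the club-like values was not tested. In mesothelial-like cells Pappa, the protease that cuts Igfbp4, was 6.35 CPM (4 UMIs) and 31.1 CPM (33 UMIs; 2.29, 0.80 to 4.25), and Igf2bp1 was 30.2 and 4.72 CPM. In smooth muscle-like cells the receptor substrate Irs2 was 53.6 and 21.8 CPM (-1.30, -2.16 to -0.52). Stc1, an inhibitor of Pappa, was lower in AT2-like (-2.59, -3.77 to -1.32) and alveolar fibroblast-like cells (-1.17, -2.14 to -0.23) from at most 24 UMIs in a library. Grb14, an adaptor that inhibits insulin receptor signalling, was highest in AT2-like cells, at 348 CPM in the WT and 381 CPM in the KO library. The growth hormone receptor Ghr was highest in mesothelial-like cells, at 1124 and 638 CPM.

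The other pathway genes past 2-fold rested on small counts. These are raw UMIs, WT first, from class sums that differ in size between the libraries. The direction stated is that of the CPM, which can go against the raw counts. In AT2-like cells Pappa was lower in the KO library (4 and 17 UMIs). In AT1-like cells Stat5a was lower (7 and 11) and Igf2bp3 higher (2 and 19). In transitional-like cells Pappa2 (6 and 6) and Stat5a (12 and 24) were lower and Insrr higher (0 and 10). Stc2 was higher in club-like cells (0 and 15), as were Ins2 (1 and 16) and Htra1 (1 and 19) in ciliated-like cells. In adventitial fibroblast-like cells Pappa2 had 7 and 20 and Grb14 4 and 17 UMIs, both higher in the KO library. Igf2bp3 had 7 and 13 in smooth muscle-like, 49 and 7 in general capillary-like, 9 and 3 in Spp1 macrophage-like and 25 and 4 in T cell-like cells. In CPM it was higher in the KO library in each of these classes. Irs2 had 88 and 1 UMIs in general capillary-like and 153 and 4 in T cell-like cells, lower in the KO library in both. The remaining cases, Grb10, Grb14, Shc1, Ghr, Socs2 and Stat5a in immune classes, had at most 6 UMIs in the KO library.

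For each member, the 3 genes with the most similar profile were found by Pearson correlation of log2(CPM + 1) over 39 class and library sums (25 WT and 14 KO) among 15800 genes. These points share libraries and depth, and the values are a description. Igf1 was most like Htra3 (0.86), Mmp2 (0.85) and Mgp (0.84), genes of fibroblast matrix and its turnover. Igf1r was most like Arhgap32 (0.75), Slc24a3 (0.74) and Clip1 (0.72), and Igf2r like Airn (0.88), 1110046J04Rik (0.79) and Cyhr1 (0.76). Igfbp2 was most like Gm4128 (0.81), Wnt10b (0.79) and Popdc3 (0.79), Igfbp3 like Slc9b2, Igsf10 (0.83 each) and Adamts4 (0.82), and Igfbp4 like the basement membrane gene Nid1 (0.87), Nhsl2 and Tead2 (0.85 each). Igfbp5 was most like Adamts5 (0.91), Aebp1 (0.86) and Kank1 (0.85), Igfbp6 like Gpc3 (0.85), Gm14582 (0.83) and Fmod (0.82), and Igfbp7 like Pmp22 (0.91), Serpinh1 (0.90) and 1810055G02Rik (0.90). Among the members themselves no pair was above 0.58 (Igf1 with Igfbp3, Igfbp3 with Igfbp7 and Igf1r with Igfbp7).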

How the data were processed

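The 2 libraries (10x 3′ chemistry) were analysed from the UMI count matrices deposited by the authors. The submitters' processing notes name Cell Ranger 3.1.0, STAR and GRCm38/mm10, while the matrix header gives Cell Ranger 5.0.0. Whether counting used the strand was not given in the sources used here. Barcodes needed more than 200 and fewer than 5000 genes with a UMI, and a mitochondrial share of less than 20%. Each cell was given the class with the highest marker score (at least 3 markers detected, a gap of at least 0.1 to the next class). Doublets called by Scrublet (2643 WT and 422 KO cells) were kept, and their removal was an alternative. Clusters came from scanpy 1.11.5 (Leiden, resolution 2), with the 9 genes left out of the variable genes. TMM factors came from edgeR 4.0.16, and no test of edgeR was run. Intervals were exact (scipy 1.17.1). They were tried on simulated Poisson counts, the model they assume, which cannot show how they hold for counts that vary more between cells or mice. Shares were taken after thinning cells to 1000 UMIs, with Clopper-Pearson 95% intervals. A gene was counted as 2-fold apart with at least 10 UMIs over both libraries. The genes named were the 9 members, pathway genes at least 2-fold apart in a compared class and the 3 genes most like each member; Grb14 and Ghr levels and the counts of Igf2 and Igfbp1 were chosen after their values were seen. The members and lists were chosen with earlier results of these data known.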

Additional observations from a re-analysis of the deposited data

Results flagged for a closer look

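Igfbp4 differed in opposite directions between cell classes. On the log2 scale, KO over WT was 1.55 in mesothelial-like cells, but -1.79 in AT2-like, -1.63 in AT1-like, -1.84 in Krt8+ transitional-like, -2.66 in club-like, -2.71 in ciliated-like and -2.89 (-8.19 to -0.40, from 1 KO UMI) in B cell-like cells. In Spp1 macrophage-like cells, with no KO UMI, it was at most -1.15. The WT levels behind the epithelial ratios were 23.0 to 45.7 CPM, at or under the 47.3 CPM of WT B cell-like cells. Other WT immune classes ranged from 9.58 CPM (dendritic-like) to 142 CPM (T cell-like). Mesothelial-like cells stood at 116 CPM in the WT library. The part of free RNA in the epithelial and immune ratios was not tested. The difference between these classes was not tested, since each genotype had 1 library.

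Igfbp7 was higher in KO general capillary-like cells (log2 1.24) and lower in KO B cell-like cells (-1.88, -4.16 to -0.32, from 3 KO UMIs), a difference that was not tested either. B cell-like cells, at 70.5 CPM in the WT and 19.2 CPM in the KO library, were the reference class for free RNA. The part of free RNA in their ratio was not tested.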

How the results depend on the processing

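No paired analysis was possible because each genotype had 1 library, and for the same reason no replicate could be left out. The count of 26 ratios at least 2-fold apart ranged from 21 to 34 over 13 alternatives. Of 53 ratios with an interval past 0, 42 kept their sign under every setting run for them. Where a value moved or turned below, the cause was not tested. With the limits of 200 and 5000 read as UMIs, Igf1 KO over WT became -0.32 in C1q macrophage-like and -0.23 in alveolar fibroblast-like cells, Igfbp2 in AT1-like over AT2-like cells 7.34 (WT) and 7.81 (KO), and 4 ratios turned: Igfbp6 in club-like (-0.85), Igfbp5 in alveolar fibroblast-like (-0.40), Igfbp3 in general capillary-like (-1.17) and Igf2r in Spp1 macrophage-like cells (-0.029). The KO ratio of Igfbp2 in AT1-like over AT2-like cells was 8.87 with a mitochondrial limit of 10% and 8.75 with a wider gap, which also turned Igfbp5 in AT2-like cells (0.59). With classes from clusters it was 9.54, Igfbp2 in AT1-like cells 0.17, Igf1 in C1q macrophage-like cells -0.072 and in alveolar fibroblast-like cells -0.61, and Igf1r (-0.14) and Igfbp6 (0.22) in Krt8+ transitional-like and Igfbp3 in general capillary-like cells (-2.48) turned. TMM scaling shifted all genes by 0.46 in club-like, 0.23 in AT2-like and at most 0.13 in the other classes; Igf1 in alveolar fibroblast-like cells was 0.16, Igfbp2 in KO AT1-like over AT2-like cells 7.94, and Igf1r in club-like (0.016) and Igfbp5 in mesothelial-like cells (0.035) turned. Thinned to 1000 UMIs, Igf1 (-0.066) and Igfbp5 (-0.0096) in alveolar fibroblast-like cells were below 0. With mean log-normalized values, Igfbp6 in Krt8+ transitional-like (0.015) and Igf1r (0.11) and Igfbp4 (0.079) in alveolar fibroblast-like cells turned. In single clusters, chosen after seeing the data, Igfbp2 in AT1-like cells was 3.05 (1.48 to 5.35, from 3 WT UMIs), -0.052 and -0.48 (clusters 7, 27 and 29) and Igf1 in alveolar fibroblast-like cells -0.69, 0.22 and -0.14 (clusters 14, 15 and 16).

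Shares of cells with a UMI followed depth. Thinned to 500 UMIs, they were 33.6% (WT) and 36.9% (KO) for Igfbp2 in AT1-like cells, 5.45% and 6.25% for Igf1 in C1q macrophage-like cells, and 10.2% and 11.6% for Igf1 in alveolar fibroblast-like cells. Not thinned, they were 53.6% for Igfbp2 in KO AT1-like cells, 24.1% for Igf1 in WT C1q macrophage-like cells, and 37.0% and 55.1% for Igf1 in WT and KO alveolar fibroblast-like cells.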

Other observations

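Cycling alveolar-like cells (32 WT and 216 KO cells, alveolar cells with at least 3 cell cycle markers) held Igfbp7 at 139 CPM in the WT and 252 CPM in the KO library, and Igf1r at 77.4 and 25.6 CPM. With 32 WT cells this class was not compared.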
